A study of Mus musculus with 38 samples.

Results

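The genes described here are those of the cytosolic ribosomal proteins, the proteins that make up the small and the large subunit of the ribosome outside mitochondria. They were taken by name, as every non-control probe whose gene name is Rpl or Rps followed by digits, with an a, x, y or l suffix allowed, together with Rplp0, Rplp1, Rplp2 and Rpsa. Rps6 kinases and pseudogenes were left out. This gave 130 probes for 84 genes, of 40628 probes and 29411 gene names on the array. By role, 43 genes encode large subunit proteins, 31 small subunit proteins and 3 the P stalk of the large subunit (Rplp0, Rplp1 and Rplp2). The remaining 7 are paralogs of a standard ribosomal protein gene: Rpl3l, Rpl7l1, Rpl10l, Rpl22l1, Rpl39l, Rps27l and Rps4y2.

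The study hybridised RNA of stromal vascular cells to 38 Agilent arrays with 1 colour. By definition these cells are the part of the epididymal fat pad other than mature adipocytes, and the labels call them infiltrating macrophages. All mice were of the C57BL/6J strain and were put on the diets at 3 to 4 weeks of age. The low fat control diet (LFC, 10 arrays) gave 10% of its calories as fat. The high fat high sucrose control diet (HFC, 10 arrays) gave 60% of its calories as fat. HF5, HF20 and HF75 (6 arrays each) are the same high fat diet with 5, 20 or 75 µg of the formulation KAL-1. LFC and HFC have 1 array each at days 6, 10 and 14 (D6, D10, D14) and at weeks 0, 3, 6, 9, 12, 15 and 18 (W0 to W18), and the dosed diets have 1 array each from W3. The study took 5 of 30 mice per diet at a time, and whether their RNA was pooled is not stated. The p-values of diet and dose comparisons therefore rest on how the differences vary between time points. Those of the test among time points rest on the spread between the single arrays of different diets at a time. Those of the slope per week rest on the spread of arrays about the slope, with arrays of a time point treated as related. In bulk RNA, a different number of cells of a type and a different amount of RNA per cell cannot be told apart.

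Ribosomal protein genes are among the most strongly transcribed genes of any cell. Most of their proteins are needed in equal numbers, and their messenger RNAs are usually made and used together. Most of these messenger RNAs begin with a C followed by a run of pyrimidines, the 5′ terminal oligopyrimidine tract, through which mTOR signalling sets their translation. The P stalk binds the elongation factors. Paralogs replace their standard partner in some tissues: Rpl3l in heart and skeletal muscle, and Rpl10l and Rpl39l in male germ cells.

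Runs of C or T letters near the annotated start site are shown for several members, which differ in them. Of the runs marked below, only that of Rps6 covers the annotated start base, so they are not read as the tract itself. The windows hold 15 bases before and 15 bases from the RefSeq start site onward on the gene's strand (build GRCm38.p6), with capitals for a run of at least 8 C or T letters that touches the 10 bases on either side of the start. They are Rps6 at chr4:86857353-86857382 (minus strand), Rpl13a at chr7:45128731-45128760 (minus strand), Rpl22l1 at chr3:28805493-28805522 (plus strand), Rpl7l1 at chr17:46782642-46782671 (minus strand) and Rpl39l at chr16:10170213-10170242 (plus strand).
Rps6: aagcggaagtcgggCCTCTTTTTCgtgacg
Rpl13a: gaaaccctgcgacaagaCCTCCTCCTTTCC
Rpl22l1: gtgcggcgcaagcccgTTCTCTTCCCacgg
Rpl7l1: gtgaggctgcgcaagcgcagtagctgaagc
Rpl39l: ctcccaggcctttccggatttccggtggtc

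RefSeq's promoter table matched 62 of the 84 genes, with 74 start sites. A run of at least 8 C or T letters, read on the gene's strand, was present within 10 bases of the start at 21 of these 74 sites (28.4%). The share was 7.43% of all 32851 start sites in the table and 6.67% (5 of 75) at those of mitochondrial ribosomal protein genes. The standard genes Rps6, Rpl13a, Rps18 and Rplp2 and the paralog Rpl22l1 hold a run, whereas Rpl7l1 and Rpl39l hold none of that length in the window. A run of letters is a description of the window and not evidence of how the gene is translated.

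The level used below is the log2 of the processed signal minus the log2 of the 75th percentile of that array, so a level of 0 is the array's own 75th percentile. That percentile before scaling is called the array's brightness. Where a gene has several probes, the one with the highest mean over the arrays stands for it. On every array the members sat near the top: the median member ranked between the 97.6th and the 98.8th percentile of all probes. Macrophage markers (12 genes) had a mean level between -0.30 (HF20 W12) and 3.20 (HF5 W9), with a mean of 1.39 ± 0.54 over the LFC arrays and 2.05 ± 0.72 over the HFC arrays (SD, n = 10 each). Adipocyte markers (9 genes) were measured as well, with a mean level of 3.25 ± 1.43 over the LFC arrays and 2.70 ± 1.04 over the HFC arrays (SD, n = 10 each). They ran from -0.45 (HF20 W12) to 5.46 (HF75 W12). On most arrays they lay above the macrophage markers. Examples are LFC D6 (4.31 against 1.89), LFC W9 (5.42 against 1.67), HFC W9 (5.34 against 2.42), LFC W12 (5.01 against 1.19) and HF75 W12 (5.46 against 1.61). On fewer arrays, such as HF5 W6 (1.65 against 2.47), they lay below. The part of either list in the results below was not tested.

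Many spots of these genes reached the scanner's ceiling. Of 3181 member measurements 1439 were saturated (45.2%), against 1.40% of the measurements of all probes. A saturated spot gives only a lower bound for its RNA, and after scaling its level drops as the rest of its array gets brighter. No member was saturated on all 38 arrays, 43 genes were saturated on 19 to 37 of them, 20 genes on 1 to 18, and 21 genes never. The genes never saturated were Rpl4, Rpl10a, Rpl14, Rpl21, Rpl24, Rpl27a, Rpl29, Rpl30, Rpl31, Rpl37, Rps6, Rps15, Rps19, Rpsa and all 7 paralogs. Rplp1, a P stalk protein, and Rps18, a protein of the head of the small subunit, were saturated on 37 arrays each.

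Array brightness ran from 25.8 (HF5 W12) and 88.4 (HF75 W3) to 1983 intensity units (HFC W0). The number of members with a saturated spot ran from 0 on HF5 W12, 5 on HF75 W3 and 7 on LFC D10 to 59 on HFC W0 and 61 on HFC W6. To compare arrays over the whole set, each gene's own mean over the 38 arrays was subtracted from its level and the median was taken over the members. This median deviation was highest on HF75 W3 (2.04), LFC D6 (1.01) and HF5 W9 (0.85), with LFC W18 just below LFC D6, and lowest on HFC W0 (-0.86) and HFC D14 (-0.83). HF75 W3, LFC D6 and LFC W18 were dim arrays, with 5, 13 and 18 saturated members, whereas HF5 W9 had 35. HF5 W12, the dimmest array, had a median deviation of only 0.50. The arrays with the lowest medians were bright.

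**Figure D1:**
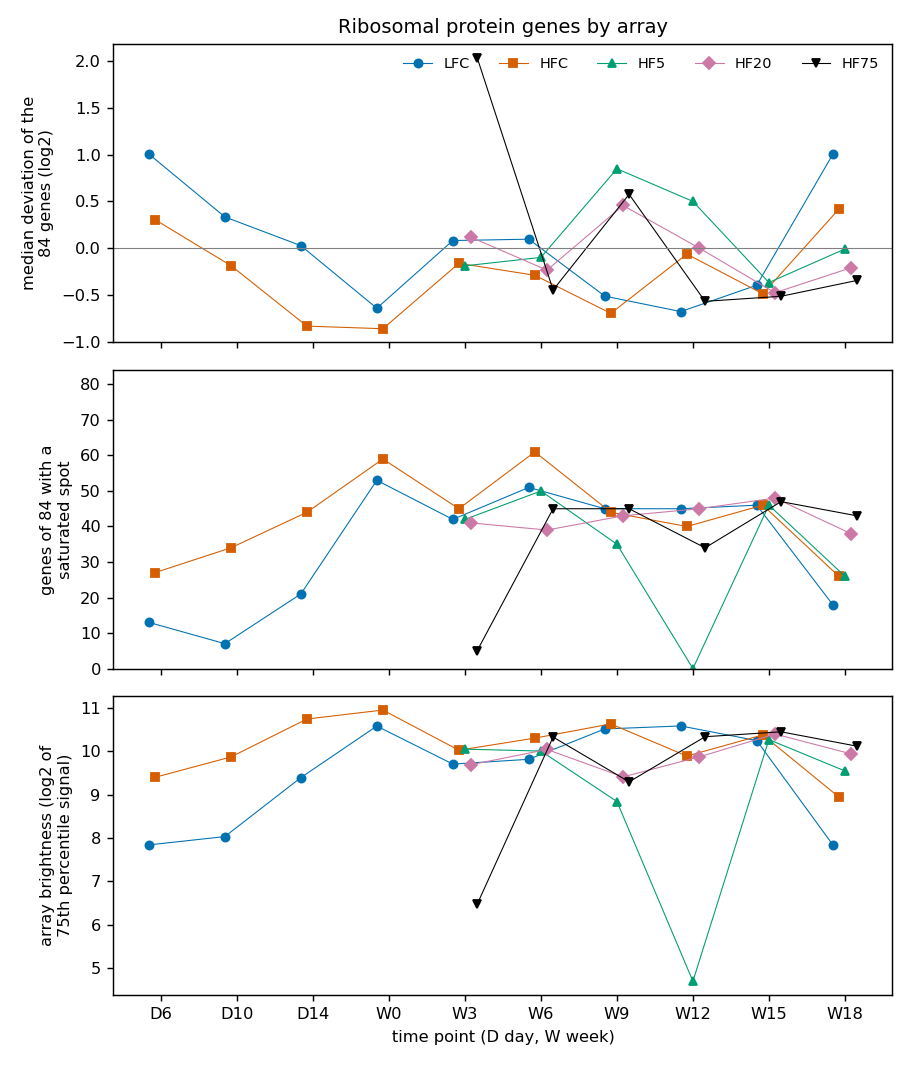
Median deviation of the 84 ribosomal protein genes (log2, top), number of the 84 genes with a saturated spot (middle) and array brightness (log2 of the 75th percentile signal, bottom) by time point, with 1 point per array and a colour and marker per diet. The dim array HF75 W3 stands highest in the top panel at 2.04, and HF5 W12, the dimmest, has 0 saturated genes.

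Over the 38 arrays the median deviation followed log2 brightness with Pearson's r = -0.81, and with r = -0.93 over the 36 arrays other than HF5 W12 and HF75 W3. These correlations share each array's percentile on both axes and are given as descriptions. For the 63 genes saturated at least once r was -0.82, and for the 21 never saturated it was -0.49. The P stalk genes followed brightness most closely (r = -0.99), ahead of the small subunit (-0.84), the large subunit (-0.73) and the paralogs (-0.63). Gene by gene, r with brightness was below 0 in 63 of the 63 saturated genes (median -0.79) and in 17 of the 21 others (median -0.24). The other translation lists, scored in the same way, gave -0.63 for 19 translation factors and further oligopyrimidine messenger RNAs, -0.28 for 75 mitochondrial ribosomal protein genes, 0.24 for ribosome biogenesis genes and 0.48 for translation control genes.

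**Figure D2:**
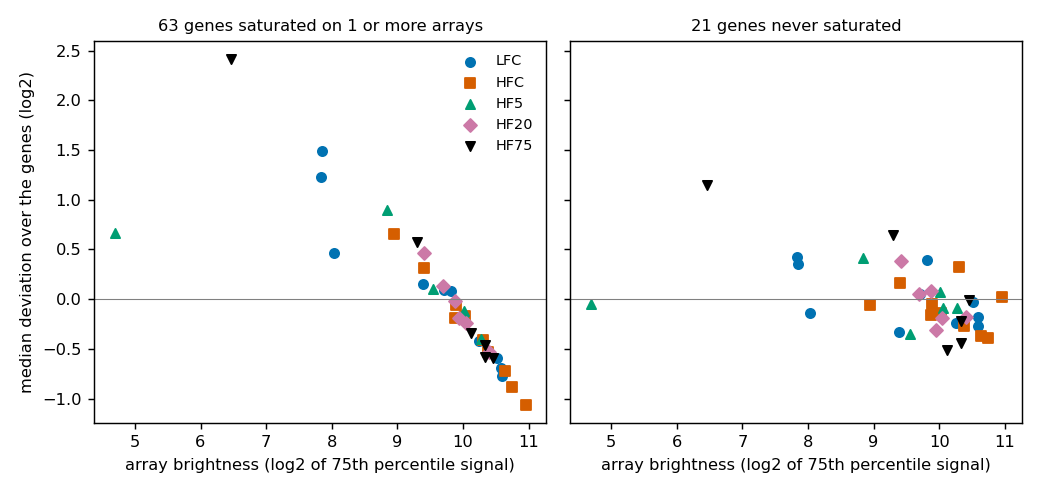
Median deviation (log2) against array brightness (log2 of the 75th percentile signal) for genes saturated on at least 1 array and for genes never saturated, with 1 point per array and a colour and marker per diet. The slope is -0.47 per log2 unit of brightness for the saturated genes (r = -0.82) and -0.13 for the others (r = -0.49).

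The P stalk shows the ceiling most plainly. Rplp1 was measured on LFC arrays at 8.22 (D6), 8.06 (D10), 6.84 (D14), 5.44 (W0), 6.29 (W3), 6.14 (W6), 5.43 (W9), 5.36 (W12), 5.81 (W15) and 8.27 (W18), all saturated. The LFC values over 8 came from the dim arrays of D6, D10 and W18. On HFC arrays it ranged from 5.10 (W0) through a median of 5.90 to 7.16 (W18), also all saturated. Its only unsaturated spot was on HF5 W12, where it reached 10.11. Rplp2, its partner in the stalk, behaved alike, with 9.80 on HF5 W12 and 4.97 on HFC W0, and Rplp0, the stalk's base, reached 9.31 on HF75 W3.

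Genes differed widely in how much they varied and in how closely they followed the rest. The SD of the level over the 38 arrays was largest for the paralogs Rpl10l (2.93), Rpl3l (2.76) and Rpl39l (1.91) and smallest for the paralog Rpl7l1 (0.31), for Rpl31 (0.39) and for Rps9 (0.41). Among standard genes the SD ran from 0.39 to 1.61 for the large subunit, with Rpl6 highest, and up to 1.03 for the small subunit, with Rps12 highest. Rpl23a (r = 0.99 over 38 arrays), Rps21 (0.98) and Rpl9 (0.98) followed the median of the other members most closely, and each was saturated on 27 to 30 arrays. Rpl4 (-0.51), Rps19 (-0.00) and Rpl7l1 (0.08) followed it least, and none of these was ever saturated. Rpl4, a large subunit protein with a long extension, was lowest on HF75 W3 (0.77), the array where most members were highest.

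Between these extremes lie the other standard genes chosen by name. Rpl5 and Rpl11, which bind the 5S RNA, followed the others at r = 0.91 and 0.98 and were saturated on 29 and 28 arrays. Rpl7, Rpl32 and Rpl38 of the large subunit (r = 0.98, 0.97 and 0.93) and Rps3, Rps27 and Rps4x of the small subunit (0.97, 0.97 and 0.95) were saturated on 27 to 34 arrays. Rpl3, Rpl10 and Rps26 were saturated on 2, 4 and 1 arrays, and followed the others at only 0.54 to 0.55. Rpl22 was saturated on 2 arrays but had r = 0.89, and Rpl39, saturated on 18, had r = 0.86.

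Probes of 1 gene did not always tell the same story. Of the 35 genes with more than 1 probe, 6 had every correlation between probes at 0.8 or above over the arrays, 12 had one under 0.5, and the median of the lowest correlation was 0.63. Rps27 probes agreed best, with r from 0.93 to 0.995, and Rpl36a probes ranged from 0.85 to 0.99. Rpl21 (-0.39), Rps15a (-0.15) and Rpl12 (0.03) had the lowest correlations between probes. Which transcripts each probe binds was not tested.

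The first question of the design was whether the high fat diet alone moved these genes. None of the 84 members passed an adjusted p of 0.05 in HFC minus LFC over the 10 time points (limma, time point as a block), and none of the 31208 probes tested did (0.0%). The estimates leaned 1 way: 72 members were lower and 12 higher in HFC, with a median of -0.31 log2 against 0.01 for all probes. At an unadjusted p under 0.05, 30 members were lower, against 4.6% of all probes, and 0 were higher, against 4.62% of all probes. These counts read each gene at its probe of highest mean level. Further probes of genes with several went both ways. A Rps27 probe gave -0.61 and a Rps28 probe -0.41, both at unadjusted p under 0.05. An Rpl12 probe gave 0.36 and an Rpl37 probe 0.26, neither at that level. By role, the median estimate was -0.63 for the P stalk (3 of 3 lower at unadjusted p), -0.45 for the small subunit (13 of 31), -0.30 for the large subunit (13 of 43) and -0.10 for the paralogs (1 of 7).

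The lean was found among the saturated genes. Of the 63 genes saturated at least once 60 were lower in HFC, with a median of -0.41 and 29 at unadjusted p under 0.05. Of the 21 never saturated 12 were lower, with a median of -0.05 and 1 at that level. HFC arrays were brighter than the LFC array of the same time at 9 of 10 times, by 0.66 ± 0.78 log2 (SD, n = 10). The member median was lower in HFC at 9 of 10 times, and the exception in both was W12, where the HFC array was dimmer by 0.70 and the member median higher by 0.61. On HFC W12, 4850 of 43803 spots were flagged as outliers and left out, and on HF75 W12 6257 were. The highest number on any other array was 922 (HFC D10). All 84 members were still measured on HFC W12 and HF75 W12. LFC and HFC shared a slide at D6, D10, W12, W15 and W18, where the member median differed by -0.70, -0.52, 0.61, -0.09 and -0.58. The 12 macrophage markers were all higher in HFC by estimate (7 at unadjusted p under 0.05, none adjusted). Other marker lists leaned too, with none passing: brown fat 5 of 5 lower (median -1.77), endothelial 6 of 6 lower (-0.61), adipocyte 8 of 9 lower (-0.59), skeletal muscle 8 of 8 lower (-0.90), and mesothelial 7 of 7 (1.81), epididymis 9 of 9 (1.75) and sperm 6 of 6 (1.25) higher. How far brightness and cell content enter the members' difference was not tested beyond the alternatives below.

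The 3 members with the smallest p, none past the threshold, were Rpl41, Rps12 and Rpl36. Rpl41, a very short peptide at the subunit interface, lay between 5.41 and 8.22 on LFC arrays (mean 6.59 ± 1.08) and between 5.09 and 6.92 on HFC arrays (5.95 ± 0.58, SD, n = 10 each). Rps12 had means of 6.60 ± 1.15 and 5.88 ± 0.56. All 10 HFC spots of both genes were saturated, as were 9 of 10 LFC spots, so both means are lower bounds and no fold is given. Rpl36, a large subunit protein, lay between 5.32 and 8.02 on LFC arrays and between 4.98 and 6.93 on HFC arrays, with 8 of 10 LFC and 9 of 10 HFC spots saturated, so most of its levels are lower bounds as well and no fold is given. The adjusted p of all 3 genes was 0.536 by limma, and that test compares mostly saturated spots. Leaving out 1 time point at a time moved the number of members at unadjusted p under 0.05 between 10 and 45.

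With brightness as a covariate, 51 members were lower and 33 higher in HFC and 0 reached an unadjusted p of 0.05. Under quantile scaling 36 were lower and 48 higher, with a median of 0.02, and 2 were higher at that level. Quantile scaling gives the top of every array, where the members lie, the same values by construction. Brightness is itself subtracted to make the level, and it differed between the diets. Neither setting can therefore tell how much of the members' lean lies in their RNA. No member passed under any of these settings.

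**Figure D3:**
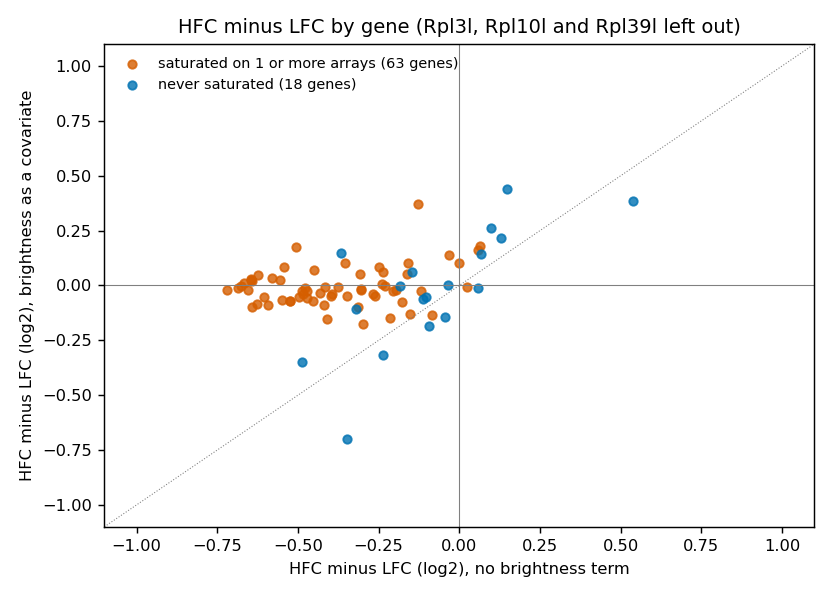
HFC minus LFC (log2) for each gene without a brightness term (horizontal) and with array brightness as a covariate (vertical), for genes saturated on at least 1 array and genes never saturated, leaving out Rpl3l, Rpl10l and Rpl39l. The dotted line marks equal values. Saturated genes lie left of 0 on the horizontal axis (60 of 63 below 0), and the covariate brings the members' median from -0.31 to -0.02.

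The next question was whether the formulation moved these genes on the high fat diet. All dose comparisons use the same 6 HFC arrays of W3 to W18, so they are not independent of each other. No member passed an adjusted p of 0.05 in HF5, HF20 or HF75 minus HFC or in the mean of the doses minus HFC, and none of the 33787 probes did (0.0%). Members higher at unadjusted p under 0.05 numbered 3 for HF5 (3.73% of all probes), 2 for HF20 (1.34%), 1 for HF75 (0.725%) and 4 for the mean of the doses (1.5%), and 0 were lower in each. By estimate 70, 71, 79 and 74 of the 84 members were higher, with medians of 0.30, 0.13, 0.34 and 0.27. These counts, too, read each gene at its probe of highest mean level, and further probes went both ways. A second Rplp0 probe gave 1.45 in HF5 (unadjusted limma p = 0.0138, adjusted 0.821). In HF75 that probe gave 1.20 (p = 0.0345, adjusted 0.9998 by limma). A second Rpl7l1 probe gave -0.57 in HF5 and a second Rps15a probe -0.55 in HF20, neither at unadjusted p under 0.05. Under quantile scaling 49, 60, 50 and 51 were higher, with medians of 0.01, 0.06, 0.03 and 0.03. That scaling brings values at the top of the arrays together by construction.

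Leaving out 1 week moved each of these medians. The HF75 median fell to -0.05 without W3 and the HF20 median to -0.06 without W9, and the HF5 median stayed above 0, at 0.06 without W9. The median for the mean of the doses lay between 0.05 and 0.47. Without HF5 W12 and HF75 W3, the dimmest arrays, 24 of 84 members were higher in HF75, with a median of -0.05. With brightness as a covariate 12 of 84 were higher in HF5, with a median of -0.12. The HF75 median difference of 2.20 at W3 stood beside differences of -0.16 (W6), 1.27 (W9), -0.50 (W12), -0.03 (W15) and -0.76 (W18). At W9 all dosed arrays were dimmer than HFC, were scanned in another session, and had a higher member median, by 1.54 (HF5), 1.15 (HF20) and 1.27 (HF75). HFC W9 also had adipocyte markers at 5.34, against 3.63 (HF5), 2.94 (HF20) and 3.61 (HF75). Its immediate early markers (Fos, Jun and others) were at 0.39, against 4.94, 4.96 and 4.77. The part of these in the W9 differences was not tested. With the scan session as the block in place of the week, 10 of 84 members were higher in HF20 (median -0.20).

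Rpl39l, the germ cell paralog of Rpl39, gave the smallest p of any member in the HF5 comparison. Its level on HF5 arrays was 0.48 (W3), -1.51 (W6), 1.03 (W9), -0.01 (W12), -3.48 (W15) and 0.84 (W18), against -3.36, -2.05, -5.92, -3.28, -3.62 and -4.72 on HFC arrays. HF5 was higher at 6 of 6 weeks, though the groups overlap because HF5 W15 lies below HFC W3, W6 and W12. The estimate was 3.38 ± 0.81 log2 (SE), with an unadjusted limma p of 0.000376 and an adjusted p of 0.738. HF5 W12 is the dimmest array. A second, dimmer Rpl39l probe (r = 0.64 with the first) was at -6.25, -6.02, -4.65, -3.60, -8.69 and -4.89 on HF5 arrays in the same order. On HFC arrays that probe was at -6.87, -6.32, -8.24, -5.40, -8.67 and -6.23, so it was not higher in HF5 at W15. The values below are of the first probe. At W15 and W18 the doses of HF5 and HF20 are swapped in the diet label relative to the source name. With the dose of that label, Rpl39l was higher in HF5 at 5 of 6 weeks, by 2.64 on average, and in HF20 at 6 of 6 weeks, by 2.69, the difference of 5.56 at W18 then belonging to HF20. With the source name's dose, in the 5 weeks scanned in the same session the differences were 3.83, 0.54, 3.27, 0.15 and 5.56. For HF20 the estimate was 1.94 (unadjusted p = 0.0258, adjusted 0.9999 by limma), with a difference of 6.50 at W9, and without W9 it was 1.03. For HF75 the mean difference over the weeks was 0.77 ± 1.37 (SD, n = 6).

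Rpl10l, the autosomal germ cell paralog of Rpl10, was well above background on only 20 of 38 arrays. It reached -0.52 (W3), -0.20 (W9) and 0.42 (W18) on HF5 arrays and -8.28 (W6), -3.40 (W12) and -6.96 (W15) on the others of that diet. It was higher than HFC at 5 of 6 weeks (unadjusted limma p = 0.0308, adjusted 0.929). Only 3 of the 6 HF5 spots were well above background, so no size of the difference is given. With the dose of the diet label it was higher in HF5 at 4 of 6 weeks, and the level of 0.42 at W18 belongs to HF20. Of the 10 HFC arrays it was well above background on 6, among them D10 (-0.09) and D14 (-0.53).

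Several arrays high in both paralogs were also high in sperm transcripts. The mean level of 7 spermatid and sperm markers (Prm1, Prm2, Tnp1, Tnp2, Odf1, Smcp and Akap4) was 1.18, 2.73 and 2.73 on HF5 W3, W9 and W18, and 0.98 and 2.73 on HF20 W3 and W9. On the other HF5 arrays it was -3.64 (W6), -1.91 (W12) and -4.26 (W15), and over the HFC arrays it ran from -6.14 to 0.70. HFC D10 was an exception, with Rpl39l at 0.16 and Rpl10l at -0.09 beside sperm markers at -3.80. Over the 38 arrays r with these markers was 0.84 for Rpl10l and 0.64 for Rpl39l, and r between the paralogs was 0.70. With 9 epididymis markers r was 0.59 and 0.25. All 7 sperm markers were higher in HF5 than in HFC by estimate, 2 of them at unadjusted p under 0.05 and 0 after adjustment. The part of testis or epididymis RNA in the paralogs' levels was not tested.

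**Figure D4:**
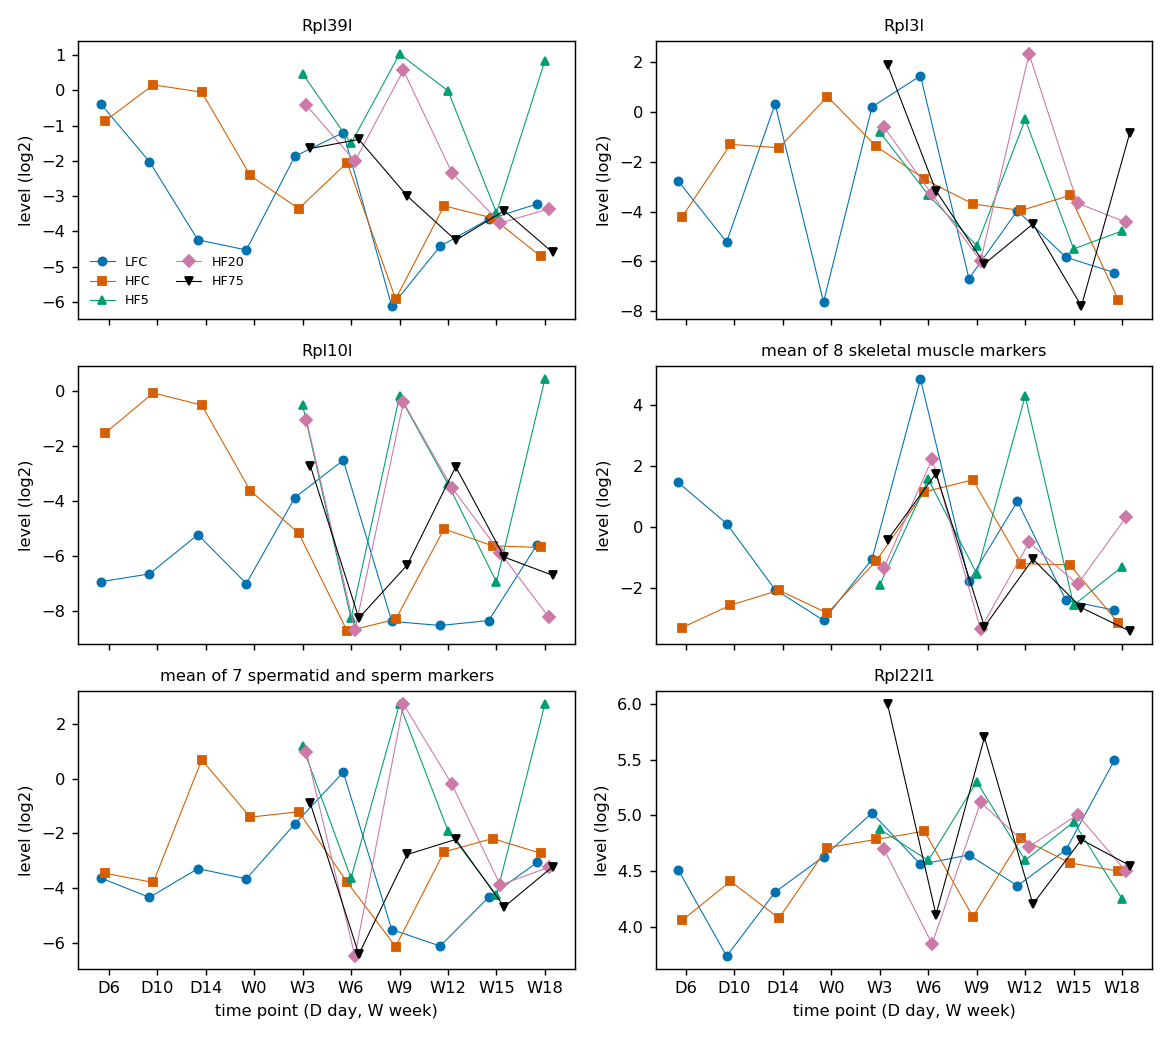
Levels (log2 relative to the array's 75th percentile) of ribosomal protein paralogs and mean levels of marker lists by time point, with 1 point per array and a colour and marker per diet. On HF5 W3, W9 and W18 and HF20 W3 and W9, Rpl39l lies at -0.42 or above, Rpl10l at -1.06 or above and the sperm marker mean at 0.98 or above.

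Rpl3l, the muscle paralog of Rpl3, ranged from -7.79 (HF75 W15) to 2.33 (HF20 W12) and was well above background on 29 arrays. Its r with the mean of 8 skeletal muscle markers was 0.36 over the 38 arrays. Muscle markers were highest on LFC W6 (4.83) and HF5 W12 (4.28), where Rpl3l was at 1.45 and -0.30. The other paralogs varied far less. Rpl22l1, paralog of Rpl22, kept between 3.73 and 6.00 on all arrays, with means of 4.597 ± 0.458 in LFC and 4.485 ± 0.316 in HFC (SD, n = 10 each). Rpl7l1, a nucleolar relative of Rpl7, stayed between -0.56 and 0.63.

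Other members with the smallest unadjusted p in the dose comparisons were Rps27a, Rpl6, Rps6 and Rps4y2. Rps27a, made as a fusion with ubiquitin, had 4 of 6 spots saturated in each dosed diet, so its levels are in part lower bounds. Its measured mean was 6.29 in HF5, and the HF5 comparison gave an unadjusted limma p of 0.0444 (adjusted 0.9995). Its HFC array of W18 was low, at 4.05 against 5.32 to 6.03 on the HFC arrays of W3 to W15. Rps6, the small subunit protein phosphorylated by S6 kinase and never saturated, differed by 0.64 in HF75 (p = 0.0484, adjusted 0.9998 by limma) and by 0.33 without W18. On that HFC array Rps6 was at 2.49, the lowest of its 36 values. Rps4y2 differed by 0.63 in HF75 (p = 0.0527, adjusted 0.9998 by limma), and by 0.34 without W3. Rpl6 differed by 0.98 in HF20 (p = 0.0299, adjusted 0.9999 by limma), whereas its other probe gave -0.08.

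Levels of some members did differ over the course. In the test of differences among the 10 time points, with diet as a covariate, 10 of the 84 members passed an adjusted p of 0.05 (11.9%), against 39.8% of the 33731 probes tested. By role 3 of 43 large subunit genes, 4 of 31 small subunit genes, 3 of 7 paralogs and 0 of 3 P stalk genes passed. Of the genes never saturated 7 of 21 passed (33.3%), and of the saturated 3 of 63. The arrays of a time point were collected, and mostly scanned, together, so time, age and handling cannot be told apart.

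Rpl6, a large subunit protein, gave the smallest p (adjusted p = 9.17e-05 by limma). Its level was 2.28 and -0.02 on the D10 arrays (LFC, HFC) and 0.80 and 2.87 on the D14 arrays. It was 5.31 and 5.16 at W0, although W0 and D14 are the same day of the diets by the study's conversion. From W3 to W9 it lay between 5.06 and 6.70 on all 15 arrays. At W18 it was 4.14 (LFC), 1.57 (HFC), 3.59 (HF5), 4.29 (HF20) and 1.51 (HF75). The raw means of the time points lay between 1.13 at D10 and 5.91 at W3, and the fitted time effects, with diet as a covariate, spanned 4.52 log2. D10 and D14 were thus low and D6 and W0 to W9 high, with no overlap between D10 or D14 and W0 to W9. The mean then fell through 4.68 at W12 and 3.87 at W15 (arrays 2.65 to 4.83) to 3.02 at W18.

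A second Rpl6 probe did not show this course. Its fitted time effects spanned 0.96 (adjusted p = 0.0689 by limma), it was at 3.77 and 4.22 on the D10 arrays, and its r with the first was 0.30. The probe sequences are given because the gene's result depends on which of them is read.
Rpl6 probe 1: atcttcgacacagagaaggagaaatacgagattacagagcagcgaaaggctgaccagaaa
Rpl6 probe 2: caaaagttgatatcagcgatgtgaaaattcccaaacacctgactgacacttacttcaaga

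Rps6 was low on 2 of the arrays where Rpl6 was low. It was at 2.97 on HFC D14 and 2.49 on HFC W18, against 4.13 to 5.92 on all other measured arrays, and its time test gave an adjusted p of 0.0427 (limma). Rps6 was measured on only 1 array each at D10 (4.42) and D14, the other spot being left out as an outlier. Over the 36 arrays with a Rps6 value its r with Rpl6 was 0.69. Rpl13a, a large subunit protein released in the interferon response, was lowest at D10 (mean 4.23) and D14 (4.43) and highest at D6 (5.80) and W6 (5.72), with an adjusted p of 0.0107.

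Rpsa, the small subunit protein also known as the laminin receptor, rose and fell along another course (adjusted p = 0.0017 by limma). Its time means were highest at W6 (4.29), D6 (4.00) and W9 (3.88) and lowest at W18 (2.66) and W3 (2.75). On the W6 arrays it was 4.20 (LFC), 5.21 (HFC), 4.27 (HF5), 3.99 (HF20) and 3.77 (HF75), all above each W3 array, which lay between 2.04 and 3.29. The fitted time effects of a second Rpsa probe spanned 1.03 (adjusted p = 0.121). Rps27l, the p53-induced paralog of Rps27, was lowest at W6 (mean 3.41, arrays 2.94 to 3.73) and higher at W3 (4.94), W9 (4.77) and W12 (4.69), with an adjusted p of 0.0045. All W6 arrays of Rps27l lay below all arrays of W3, W9 and W12.

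Rps19, the small subunit protein mutated in Diamond-Blackfan anaemia, was highest at W9 (mean 2.15) and W12 (2.11) and lowest at D14 (0.60), with an adjusted p of 0.0213. The W12 mean came from LFC (3.76) and HF75 (3.09), whereas HFC (1.19), HF5 (1.17) and HF20 (1.34) were near their other weeks. The probes of Rps19 and Rpsa both cover the start codon, marked in capitals, and both genes were never saturated and followed the other members little (r = -0.00 and 0.12).
Rps19: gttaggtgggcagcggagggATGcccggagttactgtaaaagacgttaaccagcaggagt
Rpsa: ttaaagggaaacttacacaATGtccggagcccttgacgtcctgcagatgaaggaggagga

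**Figure D5:**
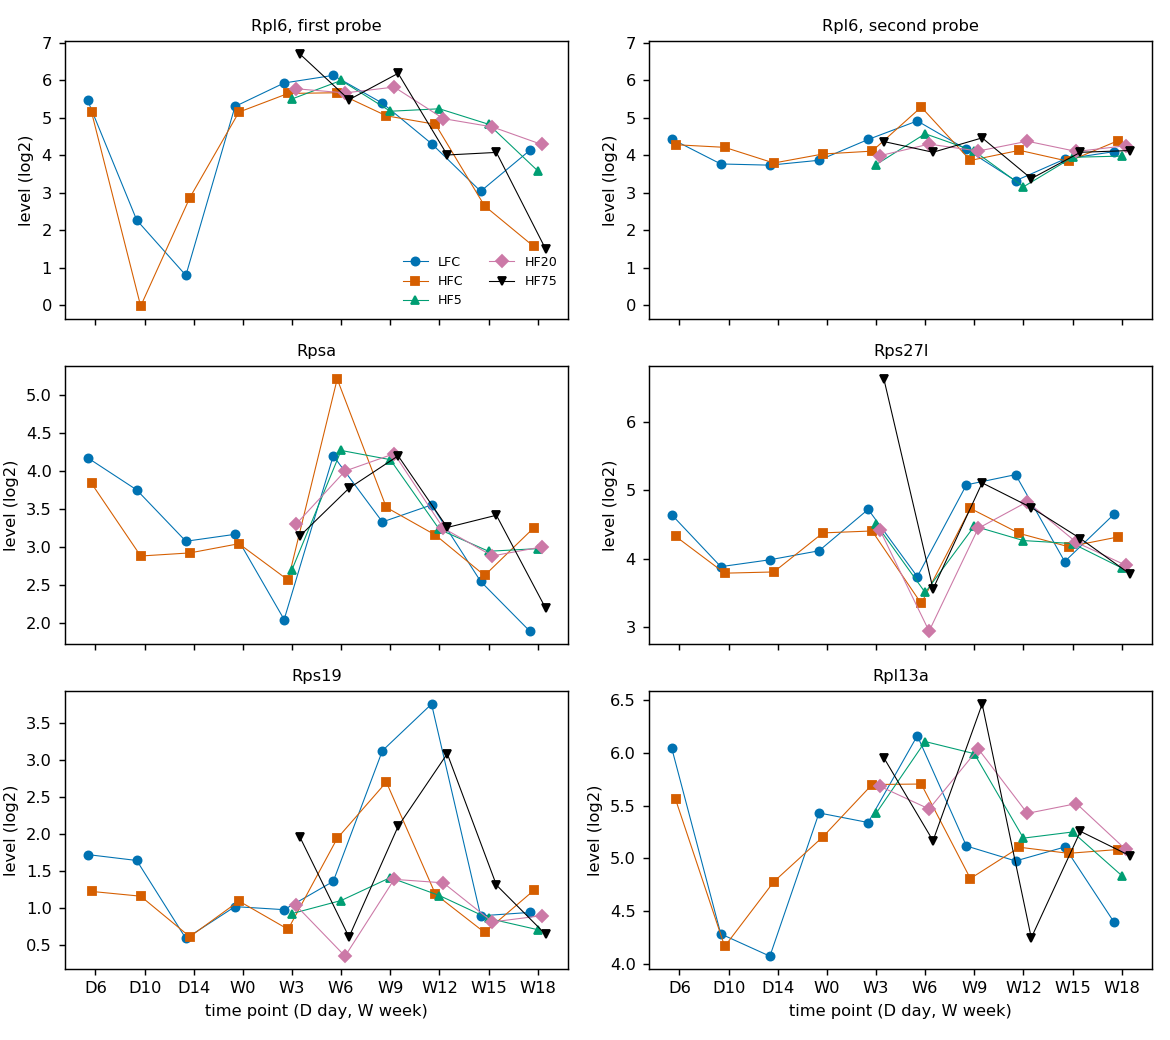
Levels (log2 relative to the array's 75th percentile) by time point of members past the threshold in the test among time points, with 1 point per array and a colour and marker per diet. Rpl6 is low at D10 and D14 and falls again from W12 to W18, Rpsa is high at W6, and Rps27l is low at W6.

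Other genes passed by less. Rps4y2 (adjusted p = 0.0270) had time means from 2.01 at W6 to 3.46 at W3, Rpl21 (0.0220) from -0.41 at W3 to 3.97 at D10 and Rpl3l (0.0437) from -5.56 at W9 to -0.14 at W3, all by limma. The D10 mean of Rpl21 is 1 array, LFC, since the HFC spot was left out as an outlier, and the fitted time effects of its second probe spanned 0.68 (adjusted p = 0.822). Rpsa passed under 20 of 20 alternatives and Rpl6 and Rpl13a under 18 of 18, Rps27l under 19 of 20 and Rps19 under 18 of 20. Rpl21 passed under 15 of 20, Rps4y2 under 16 of 20, Rps6 under 12 of 20 and Rpl3l under 8 of 19.

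The count depended on the dimmest arrays. Without HF5 W12 and HF75 W3, a setting chosen after seeing the data, 27 members passed, of which 8 were among the 10, 6 were never saturated and 21 were saturated at least once. The share of all probes under that setting is not given here, so the count describes the members alone. For comparison, 35 of 75 mitochondrial ribosomal protein genes (46.7%) passed with all arrays, led by Mrps18c, Mrps18b and Mrpl55. Of the translation factor list 3 of 19 passed (Nap1l1, Eif3k and Eif4b), of ribosome biogenesis genes 5 of 17 (among them the helicase Ddx21, the polymerase subunit Polr1b and Nop56) and of translation control genes 2 of 11 (Rps6kb2 and Eif4ebp1). In the diet and dose comparisons 0 genes of these lists passed. In HFC minus LFC 67 of 75 mitochondrial ribosomal protein genes were lower by estimate (median -0.25, 11 at unadjusted p under 0.05), and the median was -0.12 for the translation factors, 0.00 for biogenesis and -0.10 for translation control.

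The last test asked whether levels changed steadily with elapsed time. In the slope per week, with diet as a covariate and time point as a random block, 0 of 84 members passed, against 0.104% of the 33741 probes. At unadjusted p under 0.05, 1 member was lower, against 2.54% of all probes. This was Rpl39l, at -0.16 ± 0.06 log2 per week (SE, unadjusted limma p = 0.00797, adjusted 0.548). Rpl3l (-0.17) and Rpl29 (-0.04) had the next smallest p. By estimate 74 of 84 slopes were below 0, with a median of -0.01 against 0.00 for all probes. With brightness as a covariate 57 were below 0, and on HFC arrays alone 20 were.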

How the data were processed

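Per the file headers, each array's deposited intensity values were made by the authors with Feature Extraction 10.5.1.1 (the submitters' notes name 9.1), with background subtracted and no scaling between arrays. The deposited series table holds the authors' log2 ratios of each array to LFC at the matching time and was not used. Levels are log2 processed signal minus the log2 75th percentile of the array, with control and outlier spots left out and saturated spots kept. Probes well above background on at least 0.5 of the arrays of a diet were tested with limma 3.58.1 (R 4.3.3, statmod 1.5.0) and Benjamini-Hochberg adjustment over all probes at 0.05, and all 84 members entered each comparison. Time point was a block in diet and dose comparisons. Diets of a time point share a collection, so time pairs them by the labels. The code was tested on simulated data. The number of arrays limits the precision.

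The genes and lists were chosen with earlier results of these data known. Named genes were a preset list by role, members past the threshold or, failing those, the 3 of smallest p, and the 3 genes at each end of the SD and of the correlation with the other members. Alternatives were quantile scaling, normexp (offset 50) with quantile scaling, other probe filters, brightness as a covariate, unsaturated probes, each time point left out, the dose of the diet label (which differs for 4 arrays), slide or scan session as a block and the methods' t-test. Results of 1 member gene are left out of the text.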

Additional observations from a re-analysis of the deposited data

Results flagged for a closer look

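Of 80 gene and diet groups tested for an outlying array, 3 held one, where chance alone gives about 1 in 20. Rpsa on HFC W6 was at 5.21, against 2.56 to 3.83 on the other 9 HFC arrays. Rpl21 on HF5 W12, the dimmest array, was at 4.39, against -1.05 to 0.75 on the other HF5 arrays, while its second probe was at -3.86 there. Rps4y2 on HF75 W3, the second dimmest array, was at 4.70, against 2.06 to 2.95 on the other HF75 arrays. The causes were not tested.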

How the results depend on the processing

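No member passed the threshold in any diet or dose comparison under any alternative run. The time point as a replicate block was tried both ways: with no replicate block (no pairing by time point) 0 members passed in HFC minus LFC and in each dose comparison, and no call changed. The number of members that differed among time points was 10, and became 16 with quantile scaling, 19 with normexp and quantile scaling, 4 to 10 with 1 time point left out (lowest without W6, and 6 without W3 or without W15) and 27 without HF5 W12 and HF75 W3. For both scalings and for the run without the dimmest arrays the share of all probes is not given, so these counts describe the members alone. The median fitted range over the time points for the members, 1.65, became 0.61 with quantile scaling and 0.57 with normexp. With no random block 1 member passed in the slope per week, against 0, and on HFC arrays alone the median slope was 0.0246, against -0.01. The measured HFC minus LFC difference, between mostly saturated spots and so no fold, turned to 0.00251 for Rpl41 and 0.0122 for Rps12 under normexp with quantile scaling. The median deviation ranged over 2.90 log2 across arrays, and over 0.51 with quantile scaling, 0.37 with normexp and 1.66 for genes never saturated. Over all probes the number past the threshold among time points lay between 5812 and 14499 with 1 time point left out, against 13437. The slope per week passed for 35 probes, for 1 to 70 with 1 time point left out, 316 with no random block, 157 with slide as the block and 0 among probes well above background on every array. Quantile scaling gives the top of every array the same values by construction. For the other values that moved, the cause was not tested. Leaving out the dimmest arrays, leaving out the paralogs and the use of unsaturated probes together with the brightness covariate were chosen after seeing the data. Saturation limits every member level near the ceiling, since a saturated spot is a lower bound.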
